A study of Mus musculus with 8 samples.

Results

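The 29 genes described here make the enzymes of cholesterol and fatty acid synthesis in the mouse, their regulators and 1 sterol carrier. They were taken by gene symbol from a deposited table of 34745 genes, and all 29 were among the 16576 genes with enough counts to be tested. By role, 16 genes form the sterol arm (6 of the mevalonate steps and 10 that lead from squalene synthesis to cholesterol), 8 form the fatty acid arm, 4 are regulators and 1, Stard4, encodes a cytosolic cholesterol carrier. Messenger RNA was sequenced from the kidneys of WT mice at day 14 in 3 groups, namely uIRI with MSCs transplantation (uIRI+MSC, n = 3), uIRI alone (n = 3) and sham (n = 2). The abbreviation uIRI is commonly used for unilateral ischaemia-reperfusion injury (the blood flow to a kidney is stopped and then restored), and MSC for the mesenchymal stem or stromal cell. The sources used here do not give strain, sex or age, nor the origin, dose and timing of the cells, nor whether each library stands for its own animal. The p-values therefore measure only the spread between these samples, which may be technical.

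Cells build cholesterol from acetyl-CoA through mevalonate, farnesyl diphosphate and squalene, and they build fatty acids from the same precursor through malonyl-CoA. Both arms are switched on by SREBP transcription factors, which are held in the endoplasmic reticulum by INSIG proteins while sterols are plentiful and are escorted by SCAP to the Golgi for cleavage when sterols are scarce. Srebf2 products act mainly on the sterol arm and Srebf1 products mainly on the fatty acid arm. In the kidney the tubules, above all the proximal tubule, make up most of the tissue and depend on fatty acids as fuel.

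Promoter sequence is shown for 4 genes of the sterol arm that lay far below sham in both injured groups (values below), because a CCAAT box, a docking site of the SREBP partner NF-Y, stood in all 4 windows. Each window runs from 250 bases before to 50 bases after the RefSeq start (GRCm38.p6), 5′ to 3′ on the gene's strand. Capitals mark CCAAT on either strand (read as ATTGG on the other strand) and, in Hmgcs1, the sterol regulatory element TCACNCCAC.
Hmgcs1, chr13:119690101-119690400, plus strand: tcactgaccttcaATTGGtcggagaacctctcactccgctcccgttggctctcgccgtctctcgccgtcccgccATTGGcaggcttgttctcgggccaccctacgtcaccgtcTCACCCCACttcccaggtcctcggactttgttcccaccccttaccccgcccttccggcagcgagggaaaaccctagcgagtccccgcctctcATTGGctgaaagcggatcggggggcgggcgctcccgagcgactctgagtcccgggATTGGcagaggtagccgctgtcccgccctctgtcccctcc
Idi1, chr13:8885356-8885655, plus strand: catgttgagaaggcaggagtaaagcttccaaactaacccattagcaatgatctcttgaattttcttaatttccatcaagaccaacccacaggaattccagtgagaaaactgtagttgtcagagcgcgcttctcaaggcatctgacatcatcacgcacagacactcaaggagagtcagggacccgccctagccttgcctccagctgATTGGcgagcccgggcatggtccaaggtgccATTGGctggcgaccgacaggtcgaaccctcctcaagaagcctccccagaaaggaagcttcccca
Mvd, chr8:122443373-122443672, minus strand: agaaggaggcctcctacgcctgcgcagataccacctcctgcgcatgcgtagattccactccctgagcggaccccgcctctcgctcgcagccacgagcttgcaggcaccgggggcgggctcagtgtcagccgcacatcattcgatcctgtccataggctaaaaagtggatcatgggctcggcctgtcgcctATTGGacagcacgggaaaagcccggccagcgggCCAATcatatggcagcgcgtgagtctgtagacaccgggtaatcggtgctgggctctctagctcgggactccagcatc
Cyp51, chr5:4104648-4104947, minus strand: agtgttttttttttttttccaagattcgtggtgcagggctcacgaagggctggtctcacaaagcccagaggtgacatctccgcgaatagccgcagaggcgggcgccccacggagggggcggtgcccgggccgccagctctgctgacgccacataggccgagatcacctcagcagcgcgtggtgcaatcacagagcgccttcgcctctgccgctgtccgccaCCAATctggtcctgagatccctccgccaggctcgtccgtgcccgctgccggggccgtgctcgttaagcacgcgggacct
Counted from the start, the CCAAT match nearest to it began at -29 in Cyp51, -27 in Mvd and -14 in Idi1. The sterol regulatory element of Hmgcs1 began at -137 and shared 0 bases with its CCAAT matches. The RefSeq start of Hmgcs1 lies upstream of the start that the deposited table gives. Those of Idi1 and Cyp51 lie downstream of it, so the CCAAT matches of Idi1 and Cyp51 fall within the gene as deposited. For Mvd the starts are the same.

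RefSeq windows were found for 23 of the 29 members, 29 windows in all, and none was at hand for Fdps, Fdft1, Sqle, Scd1, Scd2 and Stard4. CCAAT was present in 21 of the 29 windows (72.4%), against 37.4% of all 32851 windows of the same length. In the sterol arm it stood in 13 of 16 windows (81.2%), with at least 1 in each of the 13 genes, and in the fatty acid arm in 4 of 6 windows, each of a different gene (Acly, Acacb, Fasn and Elovl5). The Sp1 box GGGCGG stood in 69% of the members' windows and in 35.7% of all windows, and the E box CACGTG in 24.1% and 7.15%. TCACNCCAC was found for Hmgcs1 alone (1 of 29 windows, against 1.24% of all windows). Elements with other letters or outside these windows were not sought, so no match does not mean that a gene has no sterol regulatory element. All motifs were read on both strands, and a match is a description of letters, not a bound site.

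Depth was 22652718, 13078851 and 11592986 counts for uIRI+MSC 1, 2 and 3, 18426077 to 24300112 for uIRI and 14185677 to 14588506 for sham, so every uIRI library was deeper than every sham library. Levels between libraries are given as CPM (counts scaled to a library of 1000000) with TMM factors, and levels between genes as the authors' FPKM, which divides by gene length. In sham the highest mean FPKM among the members was that of Hmgcs1 (199), followed by Scd1 (78.6), Cyp51 (67.9), Idi1 (49.9) and Mvd (44.8). The choice of scaling matters here. When only library size was divided out, without TMM, the median over all genes moved to a log2 change of 0.73 for uIRI against sham, -0.16 for uIRI+MSC against uIRI and 0.55 for uIRI+MSC against sham (0.06, -0.01 and 0.03 with TMM), and all changes given are relative to the TMM scaling.

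Injury without transplanted cells was compared with sham to see the state of these pathways at day 14. Among the members, the sterol arm was broadly lower in uIRI kidney, while the 8 genes of the fatty acid arm changed singly. This contrast does not extend to fatty acid synthesis beyond the members, where 19 of 22 other tested genes were lower and 2 higher (median -1.34). Of the 29 members 17 were lower, 1 (Scd2) was higher and 11 did not pass an adjusted p of 0.05 by edgeR's quasi-likelihood test. Among all tested genes 54.6% passed, 26.3% as lower and 28.3% as higher. In the sterol arm 12 of 16 genes were lower, 0 higher and 4 not called, and the median log2 change was -0.80. In the fatty acid arm 2 of 8 were lower, 1 higher and 5 not called, with a median of -0.26. Under library size alone the members split into 10 lower and 6 higher, with 7 lower and 1 higher in the sterol arm (median -0.14) and 2 lower and 4 higher in the fatty acid arm (median 0.41), beside 1989 lower and 9044 higher among all genes. The calls lost under that scaling were those of Dhcr7, Insig1, Lss, Mvk, Sc5d, Scap and Sqle, and those gained, all higher, were Acaca, Elovl5, Elovl6, Pmvk and Srebf2. No test of the difference between the arms was run.

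The deepest falls of the sterol arm were those of Idi1 and Cyp51. Cyp51 (ENSMUSG00000001467, chromosome 5, 4081145 to 4104746), which encodes the lanosterol demethylase, stood at 76.3, 71.7 and 66.8 CPM in uIRI+MSC 1, 2 and 3, at 72.6, 92.9 and 44.8 CPM in uIRI 1, 2 and 3 and at 577 and 427 CPM in sham 1 and 2. Every library of both injured groups lay far below both sham libraries, and the injured groups overlapped each other. In uIRI it was 7.16-fold lower than in sham (log2 change -2.84 ± 0.28, SE; adjusted p = 9.54e-05, edgeR).

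Idi1 (ENSMUSG00000058258, chromosome 13, 8885501 to 8892451), whose product isomerises isopentenyl diphosphate, had 59.3, 56.7 and 64.3 CPM in uIRI+MSC, 38.5, 69.4 and 27.3 CPM in uIRI and 334 and 317 CPM in sham. The fall in uIRI was 7.22-fold (-2.85 ± 0.33, adjusted p = 0.000181). Among the uIRI libraries, uIRI 2 was the highest for Idi1 and Cyp51, and also for Hmgcs1, Mvd and Mvk.

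Further up the mevalonate steps, Hmgcs1 (ENSMUSG00000093930, chromosome 13, 119690462 to 119708086), the cytosolic synthase that makes HMG-CoA, had 354, 244 and 463 CPM in uIRI+MSC, 203, 341 and 194 CPM in uIRI and 944 and 810 CPM in sham. It fell 3.57-fold in uIRI (-1.83 ± 0.32, adjusted p = 0.00134). Mvd, the mevalonate diphosphate decarboxylase gene, had 37.2, 30.1 and 23.2 CPM in uIRI+MSC, 22.3, 34.2 and 20.8 CPM in uIRI and 123 and 92.4 CPM in sham, and fell 4.17-fold in uIRI (-2.06 ± 0.26, adjusted p = 0.000316). For both genes the injured groups overlapped each other and neither reached sham.

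The kinases between Hmgcs1 and Mvd, and a later synthase of the path, were closer to sham. Mvk, the mevalonate kinase gene, had 14.8, 15.4 and 12.2 CPM in uIRI+MSC, 17.1, 18.7 and 16 CPM in uIRI and 25.2 and 22.7 CPM in sham, and fell 1.38-fold in uIRI (-0.47 ± 0.16, adjusted p = 0.036; with library size alone a log2 change of 0.20, adjusted p = 0.319). The groups were ordered without overlap, with uIRI+MSC lowest and sham highest. Pmvk, the phosphomevalonate kinase gene, had 18.7, 15.3 and 9.65 CPM in uIRI+MSC, 18.0, 21.9 and 17.2 CPM in uIRI and 18.6 and 18.1 CPM in sham. Its change in uIRI was 0.06 (95% interval -0.54 to 0.65, adjusted p = 0.871), and uIRI+MSC 3 was the lowest library. Fdps, which makes farnesyl diphosphate, showed a change of -0.10 in uIRI (95% interval -0.87 to 0.68, adjusted p = 0.827). Of the annotated exon bases of Fdps 26.7% are shared with Gm43738 on the same strand, so reads of the pair may be mixed. Of the 6 mevalonate genes 4 fell in uIRI, with a median of -1.15.

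From squalene synthesis on, 8 of 10 genes fell in uIRI, with a median of -0.80. Ebp, which encodes a sterol isomerase, had 50.1, 46.4 and 35.9 CPM in uIRI+MSC, 34.6, 40.5 and 38.5 CPM in uIRI and 104 and 90.1 CPM in sham, and fell 2.56-fold in uIRI (-1.36 ± 0.16, adjusted p = 0.000227). Nsdhl and Hsd17b7, whose products strip methyl groups from the sterol ring together with that of Msmo1, fell 2.46-fold (-1.3 ± 0.20, adjusted p = 0.00084) and 2.37-fold (-1.25 ± 0.21, adjusted p = 0.00109). The desaturase gene Sc5d and the reductase gene Dhcr7, which act at the end of the path, fell by 0.85 ± 0.15 and 0.72 ± 0.12 on the log2 scale (adjusted p = 0.00173 and 0.000961). Also lower were the lanosterol synthase gene Lss (-0.65 ± 0.18, adjusted p = 0.0136; with library size alone a log2 change of 0.01, adjusted p = 0.97) and the squalene epoxidase gene Sqle (-0.75 ± 0.28, adjusted p = 0.0477).

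Among these 10 genes, Msmo1 and Fdft1 did not pass in uIRI. Msmo1, the sterol methyl oxidase gene, had 21.1, 27.0 and 22.5 CPM in uIRI+MSC, 34.1, 47.1 and 25.7 CPM in uIRI and 60.8 and 44.3 CPM in sham. The spread within uIRI was wide, uIRI 2 overlapped sham, and the change was -0.56 ± 0.25 (adjusted p = 0.0917), which became -0.81 (adjusted p = 0.0194) without uIRI 2. Fdft1, the squalene synthase gene, showed a change of -0.28 ± 0.20 (adjusted p = 0.27) and -0.49 (adjusted p = 0.0408) without uIRI 2, and 18.3% of its exon bases lie opposite Ctsb, from which reads cannot be told apart without strand. Antisense genes also cover 12.1% of the exon bases of Hmgcs1 (Gm48342), 9.22% of Idi1 (Gm48574) and 3.76% of Cyp51 (Akap9). The sources used here do not give the strand setting of the counting.

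Leaving out a single library touched the weaker calls of the sterol arm in uIRI. The call of Sqle was lost in 7 of the 8 cases, all but the one without uIRI 2, with an adjusted p of up to 0.303. Mvk lost its call without sham 1, sham 2, uIRI 1 or uIRI 3 (adjusted p of up to 0.213), and Lss without sham 1 (0.0642) or sham 2 (0.0805). Without uIRI 2 the sterol arm median was -1.02 and 14 of its genes fell.

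**Figure D1:**
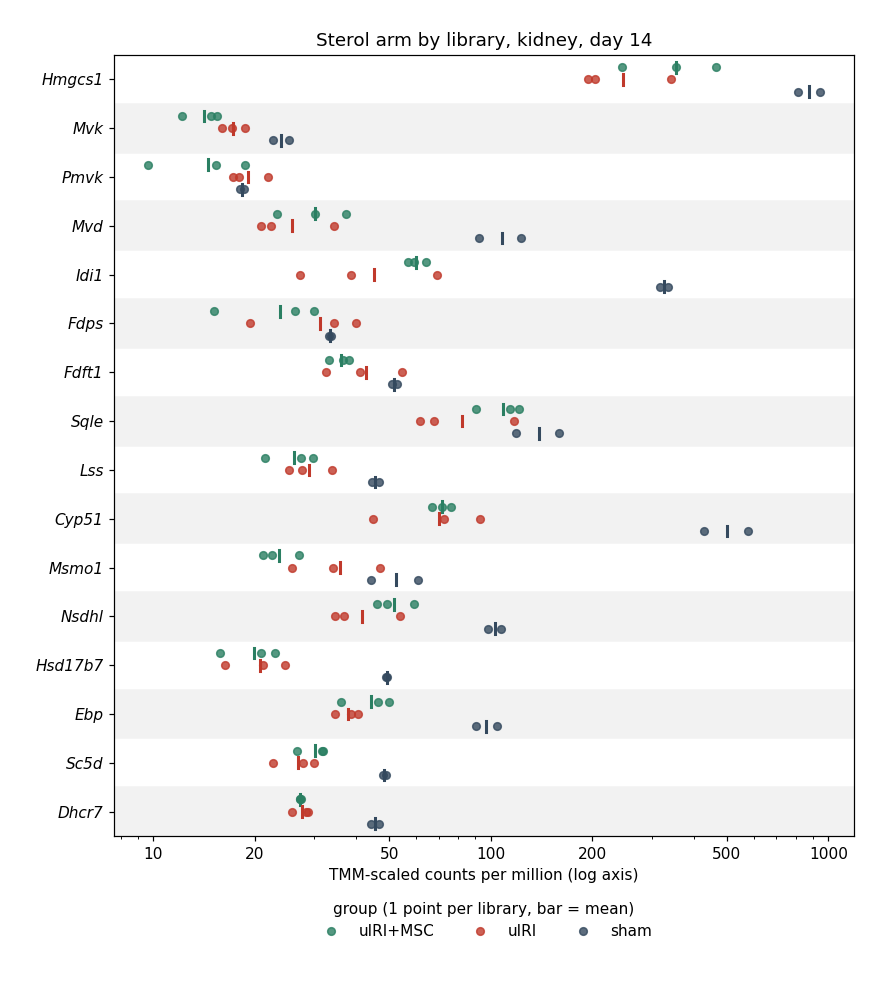
Level of the 16 sterol arm genes in TMM-scaled CPM (log axis), 1 point per library and a bar at the group mean, for uIRI+MSC, uIRI and sham, ordered along the path. Cyp51 and Idi1 show the widest gap between the injured groups and sham, while Pmvk, Fdps, Fdft1 and Msmo1 overlap sham in uIRI.

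In the fatty acid arm the stearoyl-CoA desaturase pair moved in opposite directions. Scd1 (ENSMUSG00000037071, chromosome 19, 44394451 to 44407709) had 45.3, 16.9 and 61.8 CPM in uIRI+MSC, 57.5, 48.8 and 39.1 CPM in uIRI and 602 and 438 CPM in sham. This was the largest fall among the members in uIRI, 10.7-fold (-3.42 ± 0.45, adjusted p = 0.000343). Its neighbour Scd2 (ENSMUSG00000025203, chromosome 19, 44293676 to 44306864) had 210, 236 and 188 CPM in uIRI+MSC, 450, 381 and 343 CPM in uIRI and 202 and 258 CPM in sham. Every uIRI library lay above all others, and the rise over sham was 1.71-fold (0.77 ± 0.19, adjusted p = 0.00786), which without sham 1 was 0.62 (adjusted p = 0.0728).

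Per gene length, Scd1 made up 19.6, 7.47 and 27.0% of the summed FPKM of the pair in uIRI+MSC 1, 2 and 3, 12.6, 12.6 and 11.4% in uIRI 1, 2 and 3 and 77.1 and 65.7% in sham 1 and 2. Scd2 was therefore the more abundant transcript in every injured library and Scd1 in both sham libraries. The share within a library does not depend on the scaling between libraries. The sources used here do not say how a read that fits both genes was counted.

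**Figure D2:**
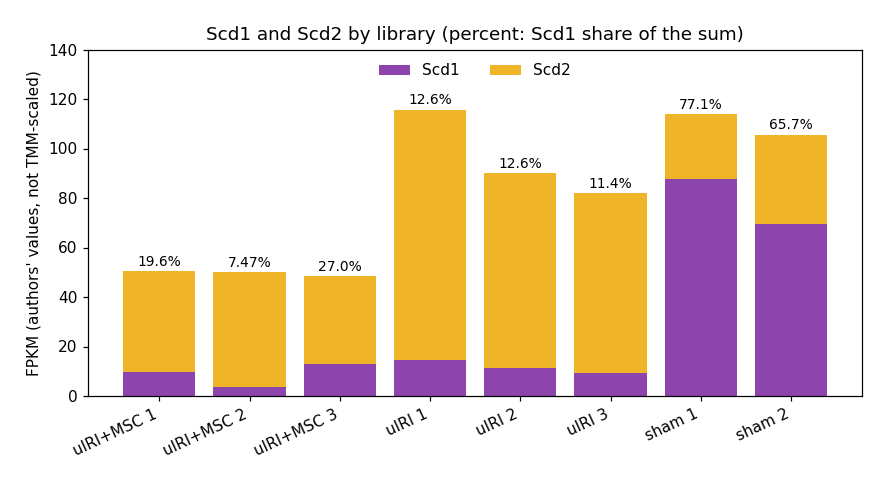
FPKM of Scd1 and Scd2, stacked for each library of uIRI+MSC, uIRI and sham, with the Scd1 share of the sum above each bar. Scd1 holds 65.7 to 77.1% in sham and at most 27.0% in the injured libraries, and the sum is lowest in uIRI+MSC (48.6 to 50.5 FPKM). The FPKM are not TMM-scaled, so bar heights do not compare groups on that scale. As TMM-scaled CPM the sum is 250 to 255 in uIRI+MSC, 383 to 508 in uIRI and 696 to 803 in sham.

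The acetyl-CoA carboxylases also differed from each other. Acacb, whose enzyme sits at the mitochondrion and makes the malonyl-CoA that restrains fatty acid oxidation, had 15.3, 12.6 and 18.6 CPM in uIRI+MSC, 17.1, 15.6 and 22.3 CPM in uIRI and 51.4 and 78.0 CPM in sham. It fell 3.53-fold in uIRI (-1.82 ± 0.24, adjusted p = 0.000341), and the injured groups overlapped. Acaca, the cytosolic carboxylase of synthesis itself, showed a change of -0.10 in uIRI (95% interval -0.44 to 0.23, adjusted p = 0.57). Acacb held 40.4, 36.3 and 49.7% of the summed FPKM of the pair in uIRI+MSC and 45.4, 40.4 and 54.6% in uIRI, against 68.8 and 78.6% in sham.

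The remaining enzymes of the fatty acid arm did not pass in uIRI. Acly, which cuts citrate to give cytosolic acetyl-CoA, had 303, 277 and 252 CPM in uIRI+MSC, 231, 293 and 203 CPM in uIRI and 332 and 314 CPM in sham (-0.41 ± 0.18 in uIRI, adjusted p = 0.0795). Fasn, the fatty acid synthase gene, had 128, 125 and 101 CPM in uIRI+MSC, 126, 150 and 126 CPM in uIRI and 199 and 159 CPM in sham (-0.41 ± 0.17 in uIRI, adjusted p = 0.0623). Both genes lay below sham in every uIRI library without reaching the threshold. Without uIRI 2, Acly passed (-0.57, adjusted p = 0.0229), and without uIRI+MSC 3, Fasn did (-0.39, adjusted p = 0.0477).

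Elovl6, the elongase of palmitate, had 37.4, 42.7 and 50.4 CPM in uIRI+MSC, 31.6, 39.5 and 35.9 CPM in uIRI and 24.4 and 39.6 CPM in sham, and its change in uIRI was 0.16 ± 0.22 (adjusted p = 0.575). Elovl5, the elongase of polyunsaturated fatty acids, showed a change of -0.04 (95% interval -0.35 to 0.27, adjusted p = 0.816). These elongases overlapped sham in uIRI.

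Among the regulators, the genes of the retention and escort proteins fell in uIRI and those of the transcription factors did not pass. Insig1 (ENSMUSG00000045294, chromosome 5, 28071363 to 28078662), itself a known SREBP target, had 34.8, 37.2 and 34.7 CPM in uIRI+MSC, 60.2, 76.0 and 36.5 CPM in uIRI and 140 and 112 CPM in sham. It fell 2.19-fold in uIRI (-1.13 ± 0.26, adjusted p = 0.00611), a call lost without sham 1 (-0.94, adjusted p = 0.0593). Scap had 114, 110 and 114 CPM in uIRI+MSC, 88.8, 101 and 103 CPM in uIRI and 178 and 154 CPM in sham, and fell 1.70-fold in uIRI (-0.77 ± 0.13, adjusted p = 0.0011). Of its exon bases 13.2% lie opposite 5830462I19Rik.

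Srebf1 had 71.2, 69.6 and 52.7 CPM in uIRI+MSC, 80.0, 89.9 and 69.8 CPM in uIRI and 85.3 and 107 CPM in sham, a change of -0.27 ± 0.18 in uIRI (adjusted p = 0.24). Srebf2 had 165, 173 and 138 CPM in uIRI+MSC, 173, 197 and 143 CPM in uIRI and 185 and 206 CPM in sham, a change of -0.19 ± 0.17 in uIRI (adjusted p = 0.373). For both factors uIRI overlapped sham. SREBP activity is set by cleavage of the protein, which was not measured here. Stard4, the sterol carrier, fell 2.59-fold in uIRI (-1.37 ± 0.23, adjusted p = 0.00126).

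**Figure D3:**
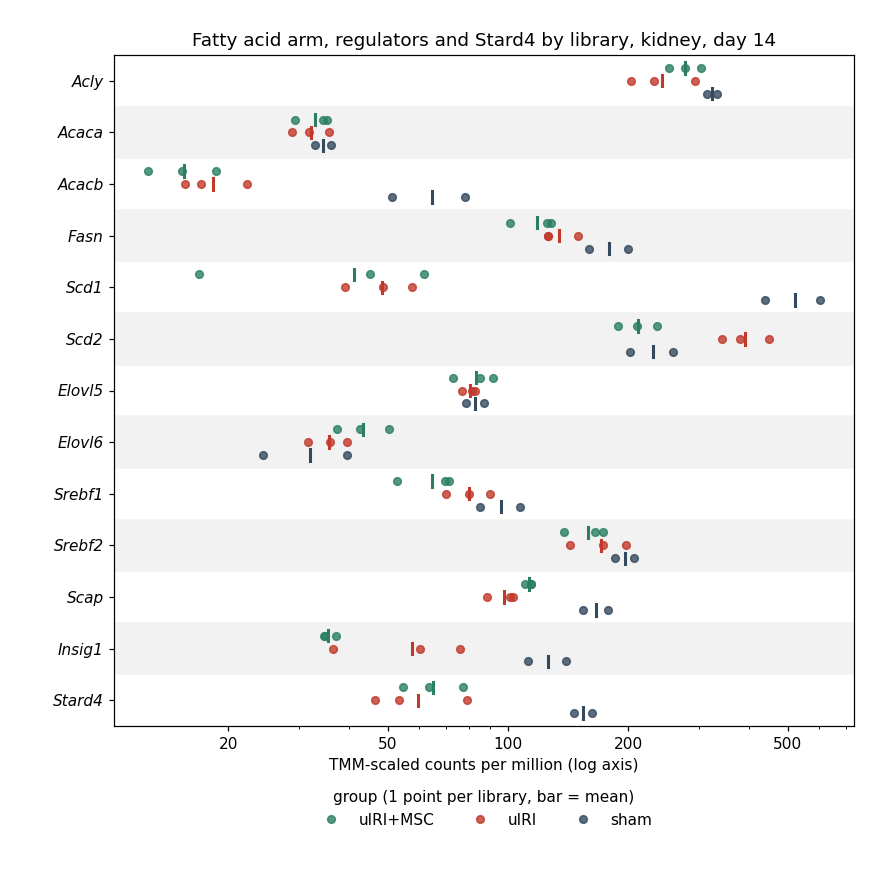
Level of the 8 fatty acid arm genes, the 4 regulators and Stard4 in TMM-scaled CPM (log axis), 1 point per library and a bar at the group mean, for uIRI+MSC, uIRI and sham. Scd1 and Acacb are low in both injured groups, whereas Scd2 is high in the uIRI libraries (343 to 450 CPM) and near sham in uIRI+MSC (188 to 236 CPM).

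Over all members, the libraries of uIRI and sham did not overlap in 20 of 29 genes, against 77.1% of all tested genes. The median change of the members was -0.72, beside 0.06 for all genes. Since sham has 2 libraries, each of them weighs heavily in these values. The count of members lower in uIRI ran from 13 without sham 1 to 20 without uIRI 2, and Scd2 was no longer called higher without sham 1.

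The comparison of uIRI+MSC with uIRI asks what the transplanted cells added to the injury. No member differed at an adjusted p of 0.05 by edgeR (0 of 29), and neither did any tested gene (0% called, with 3418 genes, 20.6%, at an unadjusted p below 0.05). DESeq2 called 1364 genes and limma-voom 0. Among the members 3 had an unadjusted p below 0.05, namely Msmo1, Insig1 and Scd2, and 3 did not overlap between the groups, namely Mvk, Scap and Scd2, against 26.9% of all genes. The median change was 0.01 in the sterol arm, -0.08 in the fatty acid arm and -0.01 over all genes.

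Scd2 was the member with the smallest p. All 3 uIRI+MSC libraries (188 to 236 CPM) lay below all 3 uIRI libraries (343 to 450 CPM) and within or near the range of sham (202 and 258 CPM). It was 1.85-fold lower in uIRI+MSC (-0.89 ± 0.16, 95% interval -1.26 to -0.51, adjusted p = 0.111, edgeR). DESeq2 gave -0.91 with an adjusted p of 0.000171, limma-voom -0.88 with 0.0919, and over the edgeR alternatives the adjusted p ran from 0.0648 to 0.23. The summed FPKM of the Scd pair, which is not TMM-scaled, was 50.5, 50.2 and 48.6 in uIRI+MSC and 116, 90.3 and 81.9 in uIRI. As TMM-scaled CPM the sum was 255, 254 and 250 in uIRI+MSC and 508, 430 and 383 in uIRI, against 803 and 696 in sham.

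No gene of the sterol arm passed between the injured groups, though some intervals were wide. Cyp51 changed by 0.03 (95% interval -0.54 to 0.60, adjusted p = 0.961 by edgeR). Hmgcs1 had the highest value of the arm, at 0.52 ± 0.29 (95% interval -0.13 to 1.17, adjusted p = 0.338). Msmo1 had the lowest, at -0.60 ± 0.23 (95% interval -1.13 to -0.07, adjusted p = 0.198). Pmvk (-0.38 ± 0.23, adjusted p = 0.382) and Mvk (-0.29 ± 0.15, adjusted p = 0.295) also lay below uIRI, while Idi1 lay above it (0.41 ± 0.29, adjusted p = 0.452). None of these values passed the threshold.

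Insig1 was tightly grouped in uIRI+MSC (34.7 to 37.2 CPM), and uIRI 3, at 36.5 CPM, fell within that range while uIRI 1 and 2 were well above it. Its change was -0.70 ± 0.24 (adjusted p = 0.166, edgeR). Scap lay the other way, at 0.20 ± 0.11 (adjusted p = 0.355), with 110 CPM in the lowest uIRI+MSC library and 103 CPM in the highest uIRI library. Scd1 changed by -0.23 (95% interval -1.13 to 0.67, adjusted p = 0.775), and without uIRI+MSC 2, its lowest library, by 0.14.

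**Figure D4:**
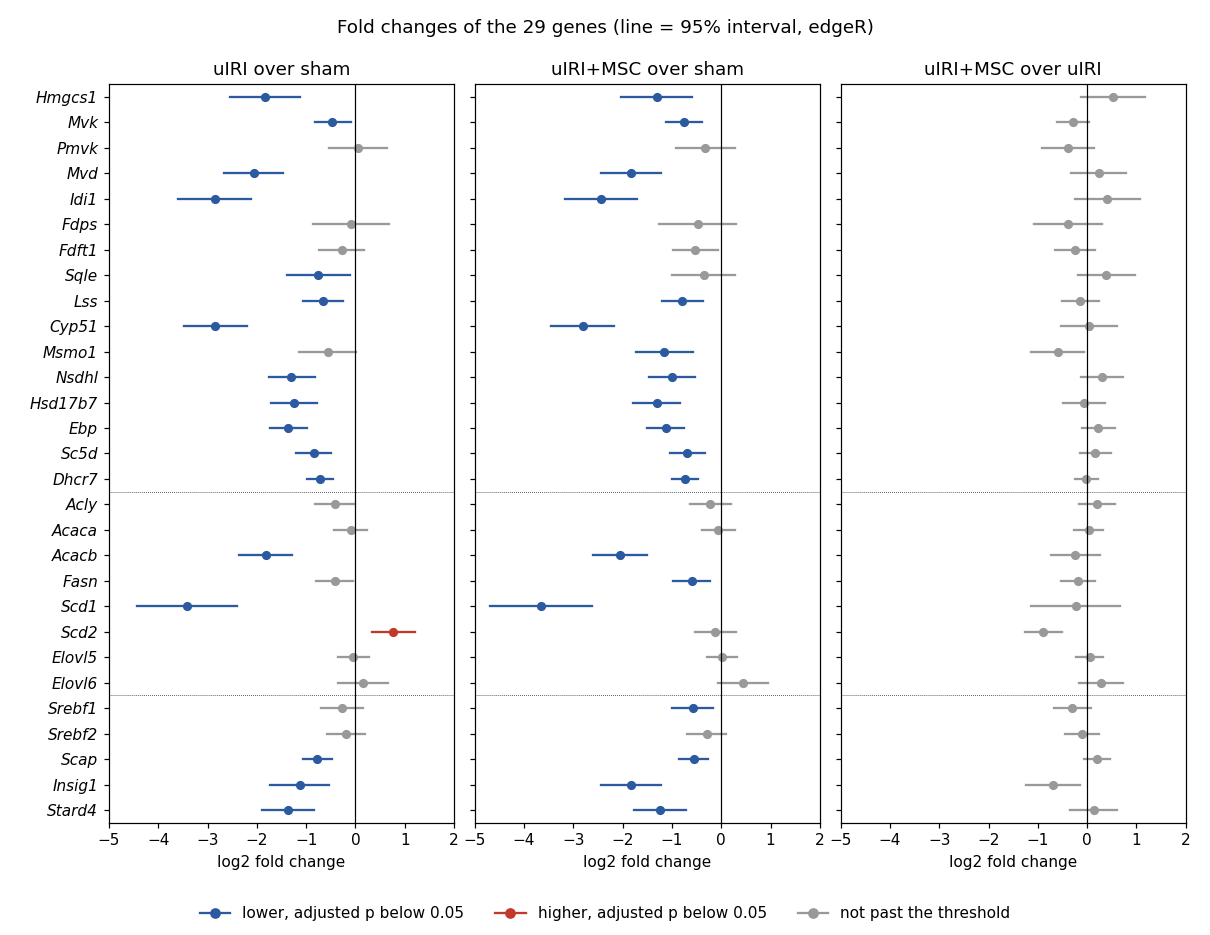
Log2 fold change of each of the 29 genes with its 95% interval in uIRI over sham, uIRI+MSC over sham and uIRI+MSC over uIRI (edgeR, relative to the TMM scaling). Both comparisons with sham show 12 sterol genes lower, and all 29 intervals of uIRI+MSC over uIRI belong to genes that did not pass, although those of Scd2, Insig1 and Msmo1 lie wholly below 0.

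Against sham, the uIRI+MSC kidney showed 19 members lower, 0 higher and 10 not called, where 42.4% of all tested genes were called, 20.3% as lower and 22.1% as higher. The comparison shares its sham libraries with that of uIRI against sham, and its uIRI+MSC libraries with that of uIRI+MSC against uIRI. In the sterol arm 12 of 16 genes fell, 0 rose and 4 (Sqle, Fdft1, Fdps and Pmvk) did not pass, with a median of -0.89. In the fatty acid arm 3 of 8 fell, 0 rose and 5 did not pass, with a median of -0.17, and the median of all genes was 0.03. With library size alone 10 members were lower and 3 higher, namely 6 lower and 0 higher in the sterol arm (median -0.38) and 2 lower and 3 higher in the fatty acid arm (median 0.34), beside 1352 lower and 7400 higher among all genes. Under that scaling Dhcr7, Fasn, Lss, Msmo1, Mvk, Nsdhl, Sc5d, Scap and Srebf1 lost their calls, and Acaca, Elovl5 and Elovl6 passed as higher. The libraries did not overlap in 23 of 29 members, against 64.2% of all genes.

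Cyp51 remained 7.01-fold below sham in uIRI+MSC (-2.81 ± 0.28, adjusted p = 0.000202, edgeR), and Idi1 5.41-fold (-2.44 ± 0.32, adjusted p = 0.000695). Mvd was 3.56-fold lower (-1.83 ± 0.26, adjusted p = 0.00102) and Ebp 2.2-fold (-1.13 ± 0.16, adjusted p = 0.000996). For each of these 4 genes the highest uIRI+MSC library stood below the lowest sham library. Hsd17b7 fell by 1.31 ± 0.21 on the log2 scale, Hmgcs1 by 1.31 ± 0.31, Msmo1 by 1.16 ± 0.25 and Nsdhl by 0.99 ± 0.20 (adjusted p = 0.00154, 0.0102, 0.00697 and 0.0052). The smaller falls of Lss, Mvk, Dhcr7 and Sc5d lay between -0.79 and -0.69 (adjusted p of 0.00156 to 0.008).

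The fatty acid genes that fell in uIRI+MSC were Scd1, Acacb and Fasn. Scd1 was 12.6-fold below sham (-3.65 ± 0.45, adjusted p = 0.000532, edgeR), with uIRI+MSC 2 the lowest library at 16.9 CPM. Acacb was 4.17-fold lower (-2.06 ± 0.24, adjusted p = 0.000413), and Fasn 1.52-fold lower (-0.60 ± 0.17, adjusted p = 0.0187). Scd2 changed by -0.12 (95% interval -0.53 to 0.30, adjusted p = 0.63), and its libraries were interleaved with those of sham. Elovl6 (0.44 ± 0.22, adjusted p = 0.145), Acly (-0.22 ± 0.18, adjusted p = 0.353), Acaca (-0.07 ± 0.15) and Elovl5 (0.01 ± 0.14) did not pass.

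Of the regulators 3 fell in uIRI+MSC. Insig1 was 3.55-fold below sham (-1.83 ± 0.26, adjusted p = 0.00101, edgeR), Scap 1.48-fold (-0.56 ± 0.13, adjusted p = 0.00782) and Srebf1 1.49-fold (-0.58 ± 0.18, adjusted p = 0.0322). Srebf2 changed by -0.30 ± 0.17 (adjusted p = 0.187). Stard4 fell by 1.24 ± 0.23 on the log2 scale (adjusted p = 0.0034). Srebf1 lost its call without sham 1 (0.0604), sham 2 (0.257) or uIRI+MSC 3 (0.0768).

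Single libraries decided several of these calls. Without sham 1 only 11 members fell and 3938 genes passed, since Fasn (adjusted p = 0.204), Hmgcs1 (0.0752), Lss (0.0515), Msmo1 (0.0811), Mvk (0.0651), Sc5d (0.0548), Scap (0.104) and Srebf1 lost theirs. Without sham 2, Lss (0.057) and Sc5d (0.0519) missed the threshold and Elovl6 passed as higher (0.87, adjusted p = 0.0297). Fdft1 (-0.53 ± 0.20, adjusted p = 0.0639) passed without uIRI 2 (0.0263) or uIRI 3 (0.0318). Without uIRI+MSC 1, which leaves uIRI+MSC libraries of about the depth of sham, 19 members fell and the sterol arm median was -0.99.

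Genes of the same pathways outside the 29 were read from lists. As background, 26.3% of all tested genes were lower and 28.3% higher in uIRI against sham. In uIRI+MSC against sham these shares were 20.3% and 22.1%. Against sham, of 9 other genes listed under sterol synthesis, some of them of linked paths, 7 fell and 0 rose in uIRI (median -1.01). In uIRI+MSC 5 of these fell and 0 rose (median -0.80). Among those with small p were the thiolase genes Acat1 and Acat2 and the dolichol synthesis gene Nus1. Acat1, a mitochondrial thiolase of ketone body and isoleucine metabolism, averaged 255 ± 21.8 CPM in uIRI+MSC and 138 ± 43.7 CPM in uIRI (SD, n = 3 each), against 1340 ± 281 CPM in sham (n = 2), and fell by 3.28 ± 0.28 in uIRI and by 2.39 ± 0.27 in uIRI+MSC on the log2 scale (adjusted p = 5.51e-05 and 0.000358, edgeR). Its cytosolic counterpart Acat2, which feeds the mevalonate path, fell by 1.64 ± 0.21 and 1.21 ± 0.21 (adjusted p = 0.000305 and 0.00236), and Nus1 by 1.79 ± 0.22 and 1.04 ± 0.22 (adjusted p = 0.000239 and 0.00549). With library size alone, 4 of the list fell and 2 rose in uIRI, and 4 fell and 1 rose in uIRI+MSC.

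Of 22 other genes of fatty acid synthesis that were tested out of 25 listed, 19 fell and 2 rose in uIRI (median -1.34), and 16 fell and 1 rose in uIRI+MSC (median -0.88). Me1, the cytosolic malic enzyme that supplies NADPH, averaged 258 ± 31.6 CPM in uIRI+MSC and 98.9 ± 43.1 CPM in uIRI, against 889 ± 156 CPM in sham, a fall of 3.17 ± 0.34 in uIRI (adjusted p = 0.000131, edgeR). The desaturase family gene Fads6 fell by 2.48 ± 0.17 in uIRI and by 2.91 ± 0.17 in uIRI+MSC (adjusted p = 2.85e-05 and 5.75e-05), and the mitochondrial fatty acid synthesis gene Oxsm by 1.72 ± 0.17 and 1.3 ± 0.17 (adjusted p = 9.2e-05 and 0.000624). The mitochondrial malonyl-CoA synthetase gene Acsf3 fell by 1.34 ± 0.21 in uIRI+MSC (adjusted p = 0.00157). Mid1ip1, an activator of acetyl-CoA carboxylase, rose in uIRI (1.14 ± 0.15, adjusted p = 0.000349). Scd4, at 0.291 to 1.01 CPM over all libraries, also rose (1.40 ± 0.48, adjusted p = 0.0343) and lost that call with DESeq2 (0.111) and limma-voom (0.0519). Under library size alone 12 fell and 3 rose in uIRI, and 5 fell and 1 rose in uIRI+MSC. In uIRI+MSC the count of falls was 7 in the lowest case of a left-out library, without sham 1.

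Of 15 other genes of SREBP control 9 fell and Nfya rose in uIRI (median -0.81), and 8 fell and 0 rose in uIRI+MSC (median -0.55). The liver X receptor gene Nr1h3 fell by 1.76 ± 0.24 in uIRI and by 1.36 ± 0.24 in uIRI+MSC (adjusted p = 0.000385 and 0.00239, edgeR). Ubxn8, an adaptor of protein degradation in the endoplasmic reticulum, fell by 1.20 ± 0.16 in uIRI and by 0.89 ± 0.16 in uIRI+MSC (adjusted p = 0.000344 and 0.00258). Nfyc, a subunit of NF-Y, fell by 0.94 ± 0.14 in uIRI (adjusted p = 0.000544), and Nfya, another subunit, rose by 0.56, a call lost without sham 2 (0.142), uIRI 1 (0.0502) or uIRI 3 (0.0603). This list depends on the scaling, since under library size alone 5 fell and 6 rose in uIRI, and 1 fell and 5 rose in uIRI+MSC, and since without sham 1 only 4 fell in uIRI+MSC. Against uIRI, 0 genes of the 3 lists passed in uIRI+MSC by edgeR, while DESeq2 called 3, 4 and 2 of them.

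Markers of kidney cell types differed from sham in the same libraries as the members. Summed over 12 proximal tubule markers, levels were 14000, 9910 and 9580 CPM in uIRI+MSC, 1820, 6690 and 4410 CPM in uIRI and 51800 and 38500 CPM in sham. Against sham, 11 fell in uIRI+MSC and all 12 in uIRI, with medians of -1.71 and -3.14, and without sham 1 the count in uIRI+MSC was 3. Summed over 10 macrophage marker symbols, levels were 2220, 1790 and 2450 CPM in uIRI+MSC, 4750, 3130 and 3940 CPM in uIRI and 260 and 221 CPM in sham, the reverse order. Of their 11 entries in the table, 10 rose in each comparison with sham. Of all tested genes 28.3% rose and 26.3% fell in uIRI against sham, and 22.1% and 20.3% in uIRI+MSC against sham. The part of these cell types in the falls of the members was not tested. In bulk kidney, fewer cells of a type and less RNA per cell cannot be told apart.

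The summed level of the sterol arm was 971, 845 and 989 CPM in uIRI+MSC, 726, 1050 and 622 CPM in uIRI and 2720 and 2320 CPM in sham. Relative to the sham mean, the median over the arm was -0.82, -0.83 and -1.07 on the log2 scale in uIRI+MSC 1, 2 and 3 and -0.91, -0.68 and -1.12 in uIRI 1, 2 and 3. The median over the proximal tubule markers was -1.59, -1.86 and -1.93 in uIRI+MSC and -4.54, -2.54 and -2.98 in uIRI, and uIRI 2 was the nearest of the uIRI libraries to sham in both lists. The summed fatty acid arm stood at 846, 830 and 793 CPM in uIRI+MSC, 1030, 1040 and 882 CPM in uIRI and 1530 and 1400 CPM in sham. Its largest part was Scd1 in sham (602 and 438 CPM) and Scd2 in uIRI (450, 381 and 343 CPM), so the sums do not describe the arm as a whole. Relative to the sham mean, the median over the fatty acid arm was -0.15, -0.11 and -0.32 in uIRI+MSC and -0.30, -0.12 and -0.38 in uIRI. The proximal tubule sums of uIRI+MSC were thus above those of uIRI in every library, and the sterol arm sums of the injured groups overlapped.

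**Figure D5:**
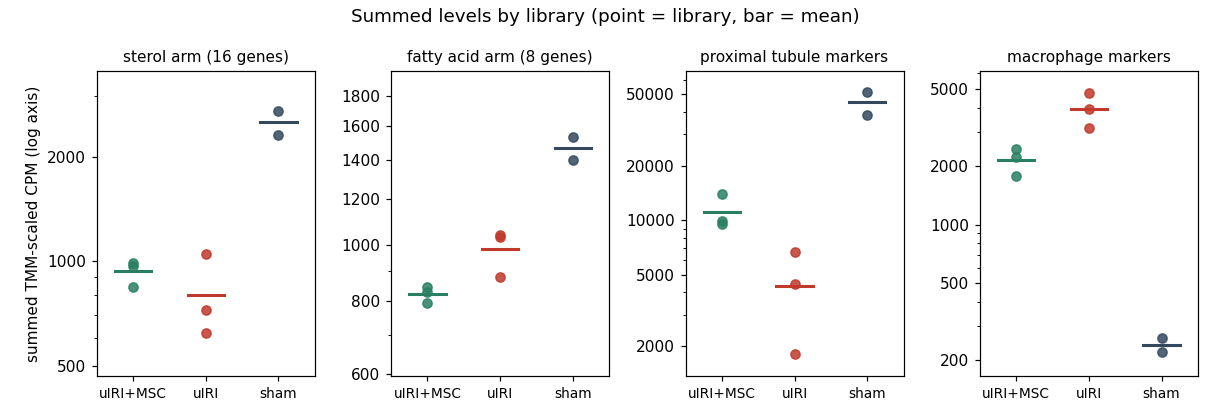
Summed TMM-scaled CPM (log axis) of the sterol arm, the fatty acid arm, proximal tubule markers and macrophage markers, 1 point per library and a bar at the group mean, for uIRI+MSC, uIRI and sham. The sterol arm and proximal tubule markers are lowest in the injured groups, and macrophage markers are highest in uIRI. The largest part of the fatty acid arm sum is Scd1 in sham and Scd2 in uIRI.

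Other cells could carry these genes too. The 9 adipocyte markers summed to 1120, 960 and 939 CPM in uIRI+MSC, 371, 517 and 406 CPM in uIRI and 3870 and 3380 CPM in sham. Of the 4 that were tested 3 fell in uIRI and 2 in uIRI+MSC, against sham. Among the 9, Lep was at 0 counts in every library, and Plin1, Retn and Adipoq were at 0 in sham. The sham sums therefore come wholly from the other markers of this list and are no measure of adipocytes. Adrenal cortex markers summed to 0.828 to 5.18 CPM and skeletal muscle markers to 0.971 to 2.24 CPM over all libraries. Markers of injured tubule (8 of 8), fibroblasts (8 of 8), T and NK cells (8 of 8) and proliferating cells (6 of 6) rose in uIRI against sham. In uIRI+MSC against sham they rose in 8 of 8, 5 of 8, 8 of 8 and 6 of 6. Of 5 B cell markers 2 rose in each comparison with sham, of 6 endothelial markers 1 rose and 1 fell in each, and of 5 thick ascending limb markers 4 fell in uIRI and 5 in uIRI+MSC. Among all tested genes 28.3% rose and 26.3% fell in uIRI against sham, and 22.1% and 20.3% in uIRI+MSC against sham. Beside these shares the B cell and endothelial counts are too few to be read as results about those cells.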

How the data were processed

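Messenger RNA of 8 mouse kidney libraries was sequenced, and the authors deposited 1 table with raw read counts and FPKM per gene and library, per the file headers. The submitters' processing notes list GRCm38, HISAT2 2.0.4, Bowtie2 2.2.6, StringTie 1.3.3b, SAMtools 1.9, edgeR 3.2.0 and FastQC 0.10.1, with no roles. The sources used here do not give the counting tool, the strand setting or the treatment of multi-mapped reads, so values of overlapping or similar genes may be mixed. The deposited FPKM was divided by the count and multiplied by the library total. For each of 9632 genes checked, this ratio was equal across libraries within 0.00087%, so both come from the same counts. Depth was 11592986 to 24300112 counts per library.

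Counts were filtered (filterByExpr, minimum count 10), scaled by TMM and tested with edgeR 4.0.16 (quasi-likelihood, R 4.3.3) in 1 fit of all 3 groups with no covariate. Benjamini-Hochberg adjustment ran over all 16576 tested genes, with a threshold of 0.05. The SE is the log2 change divided by the root of the quasi-likelihood F, and 95% intervals use the prior plus residual degrees of freedom. CPM values are TMM-scaled, and log values per library carry a prior count of 2. The fit was tested on simulated data. Alternatives were DESeq2 1.42.0, limma-voom 3.58.1, robust fitting, other scalings, filters and sample sets, a replicate block, and leaving out each library. With 1 sham library left, its spread is taken to equal that of the other groups.

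The 29 members and all lists were chosen with earlier results of these data known. All members are named, with values per library for up to 4 per arm and comparison with the smallest p, for all regulators and for further members the text describes. Of every other list up to 3 genes past the threshold with the smallest p per comparison are named; Scd4, Mid1ip1, Nfya, Scarb1, Npc1, Npc2, Abcg1 and Acsl5 may fall outside this and were added after their values were seen. Some genes that this rule takes in are not reported here. Promoter windows are from RefSeq (GRCm38.p6), and exon overlaps from GENCODE M21. Figures were drawn with matplotlib 3.10.9.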

Additional observations from a re-analysis of the deposited data

How the results depend on the processing

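The cause was not tested for any of the changes given here. With library size alone, 6 members were higher and 10 lower in uIRI against sham, and 3 were higher and 10 lower in uIRI+MSC against sham. The sterol arm medians became -0.14 in uIRI and -0.38 in uIRI+MSC against sham, and the fatty acid arm medians 0.41 and 0.34, with -0.22 for uIRI+MSC against uIRI. Under that scaling these log2 changes turned their sign in uIRI against sham: Acaca 0.56, Acly 0.25, Elovl5 0.63, Fasn 0.26, Fdft1 0.39, Fdps 0.57, Lss 0.01, Msmo1 0.11, Mvk 0.20, Srebf1 0.39 and Srebf2 0.47. In uIRI+MSC against sham they were Acaca 0.45, Acly 0.30, Fdps 0.03, Pmvk 0.19, Scd2 0.39, Sqle 0.17 and Srebf2 0.21, and in uIRI+MSC against uIRI Acaca -0.11, Cyp51 -0.12, Elovl5 -0.11 and Stard4 -0.01. Of these, Lss and Mvk in uIRI against sham had been called under TMM. Elovl5 in uIRI+MSC against sham was -0.02 with DESeq2 and with median-of-ratios factors.

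DESeq2 called 1364 genes and 1 member (Scd2, lower) in uIRI+MSC against uIRI. With no count filter Mvk (-0.45, adjusted p = 0.0703) and Sqle (0.0504) missed the threshold in uIRI against sham, as did Sqle with only the 2 groups compared (0.0817), a fit in which Fdft1 passed in uIRI+MSC against sham (0.0256).

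Over the 8 fits that left out 1 library each, the genes called ran from 3938 to 6914 in uIRI+MSC against sham and from 0 to 8 in uIRI+MSC against uIRI. Members higher ran from 0 to 1 in each comparison with sham, and members lower in uIRI+MSC against sham from 11 to 20. The sterol arm median in uIRI against sham ran from -1.02 to -0.71, and the fatty acid arm median in uIRI+MSC against sham from -0.21 to -0.08. Signs turned only for genes that were not called with all libraries. In uIRI against sham the ranges were -0.09 to 0.06 for Elovl5, -0.13 to 0.57 for Elovl6, -0.31 to 0.15 for Fdps and -0.05 to 0.13 for Pmvk. In uIRI+MSC against sham they were -0.12 to 0.04 for Acaca, -0.04 to 0.12 for Elovl5 and -0.25 to 0.10 for Scd2. In uIRI+MSC against uIRI they were -0.04 to 0.13 for Acaca, -0.21 to 0.28 for Cyp51, -0.06 to 0.01 for Dhcr7, -0.02 to 0.14 for Elovl5, -0.21 to 0.08 for Hsd17b7, -0.62 to 0.14 for Scd1, -0.23 to 0 for Srebf2 and -0.02 to 0.38 for Stard4.

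Same-numbered libraries did not deviate together (7 pairs, correlations of -0.21 to 0.11), so the numbers were not taken as pairing the samples. The fit with the replicate block called 7959 genes in uIRI against sham, 0 in uIRI+MSC against uIRI and 5753 in uIRI+MSC against sham, with 15, 0 and 17 members lower, and its fatty acid arm median in uIRI+MSC against sham was -0.08. With the block Mvk (0.104) and Sqle (0.0871) lost their calls in uIRI against sham, and Fasn (0.0601) and Srebf1 (0.0536) theirs in uIRI+MSC against sham. Signs turned with the block for Fdps in uIRI against sham (0.14) and for Acaca (0.01) and Elovl5 (-0.04) in uIRI+MSC against sham.

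All 29 members passed the count filter, and with 2 sham libraries the spread within sham rests on 1 difference per gene.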

Other observations

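Genes that move sterols into and out of cells, outside synthesis, moved in both directions. Among all tested genes, 22.1% were called higher and 20.3% lower in uIRI+MSC against sham. In uIRI against sham the shares were 28.3% and 26.3%, and they are the background for the lists below. Of 15 tested genes of sterol uptake and efflux, 7 were higher and 5 lower in uIRI+MSC against sham (median 0.30), and 7 were higher and 4 lower in uIRI against sham (median 0.39), by edgeR's quasi-likelihood test. Without sham 1 the count of lower genes in uIRI+MSC was 2. Abca1, which exports cholesterol to apolipoproteins, had 221, 241 and 227 CPM in uIRI+MSC and 306, 256 and 285 CPM in uIRI, against 38.6 and 49.4 CPM in sham. Its log2 change was 2.38 ± 0.17 in uIRI+MSC (adjusted p = 7.26e-05, edgeR) and 2.68 ± 0.17 in uIRI (adjusted p = 2.77e-05). Lrp1, a large endocytic receptor of lipoproteins and proteases, had 426, 291 and 370 CPM in uIRI+MSC and 677, 542 and 466 CPM in uIRI, against 61.5 and 73.1 CPM in sham, with changes of 2.43 ± 0.24 and 3.06 ± 0.25 (adjusted p = 0.000209 and 4.96e-05). Scarb1, Npc1, Npc2 and Abcg1 also rose in both. Macrophage markers rose in the same libraries, and their part was not tested.

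Among 10 genes of sterol storage and conversion, 3 rose and 2 fell in uIRI+MSC against sham, and 3 rose and 3 fell in uIRI against sham. Of all tested genes 42.4% and 54.6% were called in these comparisons, so the counts of this list are near the background. Cyp7b1, an oxysterol hydroxylase, had 6.91, 4.07 and 6.97 CPM in uIRI+MSC and 10.4, 7.77 and 7.48 CPM in uIRI, against 482 and 225 CPM in sham. The change was -5.88 ± 0.38 in uIRI+MSC (adjusted p = 5.96e-05, edgeR; -5.20 without sham 1) and -5.36 ± 0.37 in uIRI (adjusted p = 2.85e-05; -4.69 without sham 1). The oxysterol-making hydroxylase gene Ch25h rose by 1.28 ± 0.32 in uIRI+MSC (adjusted p = 0.0126, and 0.0781 without sham 2) and by 2.68 ± 0.32 in uIRI (adjusted p = 0.000235). Nceh1, a cholesteryl ester hydrolase gene, changed by -1.08 ± 0.21 and -1.92 ± 0.21 (adjusted p = 0.00381 and 0.000147). Without sham 2 only 1 gene of this list was called higher in uIRI+MSC.

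Of 16 genes of glycerolipid synthesis, 6 fell and 0 rose in uIRI+MSC against sham (median -0.44), and 8 fell and 1 (Acsl5) rose in uIRI against sham (median -0.79). Of all tested genes 42.4% and 54.6% were called in these comparisons, 20.3% and 26.3% as lower. The acyltransferase genes Gpam and Agpat3 fell by 1.01 ± 0.15 and 1.35 ± 0.18 in uIRI+MSC (adjusted p = 0.00107 and 0.000654, edgeR) and by 1.65 ± 0.15 and 1.83 ± 0.18 in uIRI (adjusted p = 7e-05 and 9.05e-05). The acyl-CoA synthetase gene Acsl1 fell by 1.23 ± 0.19 and 1.69 ± 0.19 (adjusted p = 0.00136 and 0.000169). Proximal tubule markers fell in the same libraries, and their part was not tested.

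With library size alone the uptake and efflux list split into 8 higher and 2 lower in uIRI+MSC and 10 higher and 2 lower in uIRI, the storage list into 3 and 2 and into 6 and 2, and the glycerolipid list into 3 and 4 and into 4 and 6, each against sham. Against uIRI, 0 genes of the 3 lists passed in uIRI+MSC by edgeR, while DESeq2 called 6, 3 and 3.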
